A study of Saccharomyces cerevisiae with 16 samples.

Results

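Protein chaperones and heat shock genes were followed in budding yeast after the putative transcription factor gene ROF1 was switched on. The group holds 36 genes of the 6225 on the array, listed by name and matched through their ORF identifiers: the heat shock regulator HSF1, the cytosolic Hsp70, Hsp110, Hsp90, Hsp104 and small heat shock proteins with their cochaperones, the membrane protein HSP30, and the chaperones of mitochondria and endoplasmic reticulum (ER). Of the 36 genes, 24 act in the cytosol and nucleus, 1 at the plasma membrane, 5 in mitochondria and 6 in the ER. Each was read by 1 probe printed in 2 spots, and all 36 were well above background in both colours on all 16 arrays.

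RNA came from 2 chemostat cultures, A and B, sampled at 0, 5, 10, 15, 20, 30, 45 and 90 min, with 1 array per culture and time. The strain, of S288C background, has ROF1 behind the Z3 promoter and expresses Z3EV, an activator that works only when β-estradiol is bound, from the ACT1 promoter beside HAP1; it also carries ura3Δ0, his3Δ1, can1Δ::STE2pr-Sphis5 and lyp1Δ, at every time including 0 min. In the paper's strain collection a URA3 marker is linked to the Z3 promoter and a natMX marker to Z3EV. The cultures were phosphate limited, and 1 µM β-estradiol was given after the 0 min sample. Each array set the sample, in red, against RNA of a reference strain, DBY12001, in green; neither a vehicle-treated culture nor a strain lacking the ROF1 construct was analysed here. The URA3 RNA rose too, with a log2 ratio to the reference of 0.69 and 0.67 at 0 min in A and B, and 4.03 and 4.13 at 10 min. An effect of ROF1, of the raised URA3, of Z3EV, of β-estradiol and of the sampling itself therefore cannot be told apart in these values.

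Molecular chaperones bind unfolded or aggregated proteins and use ATP to refold, transport or disaggregate them. In yeast the transcription factor Hsf1 drives the chaperone genes in heat shock, and Msn2 and Msn4 drive a wider set of stress genes in many stresses, small heat shock genes among them. Chaperones of the ER lumen answer mainly to a separate pathway, the unfolded protein response, which runs through Ire1 and Hac1. Many cytosolic chaperones come as pairs of close paralogs, one made steadily in growing cells (the basal isoform) and one made mostly under stress (the inducible isoform). Hsp90 also holds the hormone-binding domain of steroid receptors, and β-estradiol releases it from that domain in Z3EV.

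A change is given as the log2 ratio at a later time minus that at 0 min of the same culture, averaged over both cultures, with the standard error (SE) of limma's fit across all genes; a change of 1 is 2-fold. The later changes of a culture all share its 0 min array, so they are not independent of one another. A gene passed the test at a Benjamini-Hochberg adjusted p under 0.05 over the 6046 genes tested, with no minimum size. ROF1 itself had a red intensity of 590.9 and 518.6 at 5 min and of 710.2 and 953.3 at 90 min in cultures A and B, against 11.54 and 16.97 at 0 min. Both 0 min values lie under the floor of 50 that was set on intensities, so no exact fold is given. The median change of all genes was 0 on every array. Across the 36 chaperone genes, the changes in cultures A and B correlated with Pearson's r between 0.661 at 30 min and 0.95 at 90 min, a description over genes that share an array.

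Most changes of the chaperone genes were small. Of the 36, 8 rose and 1 fell at 5 min, where 10.1% of all genes tested rose and 9.54% fell. At 10 min 14 rose, or 38.9% of the group, and 1 fell, against 11.6% and 12.9% of all genes. At 15 min 11 rose and 4 fell (all genes 9.01% and 9.84%), and at 20 min 11 rose and 3 fell (all genes 7.96% and 7.56%). At 30 min 5 rose and 3 fell (all genes 5.52% and 5.94%), and at 45 min 4 rose and 2 fell (all genes 8.78% and 7.96%). At 90 min 6 rose and 6 fell, each 16.7% of the group, while 20.7% of all genes rose and 20.0% fell. With the red signal alone, without the green reference, 1 of the 36 rose at 10 min, HSP30, and 8 did at an unadjusted p under 0.05. The share of all genes that rose with red alone is not given here, so this loss cannot be set against theirs. The calls that passed with red alone were those of HSP30 at 5, 10, 45 and 90 min and of SSB1 and SSB2 at 90 min. The share of chaperone genes that rose by ratio was above that of all genes from 5 to 45 min and below it at 90 min.

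Over the whole course 24 of the 36 genes passed limma's moderated F test, against 50.6% of all genes tested. At least 1 single time passed the test for 23 genes, and 13 passed it at none. The share of all genes for this count is not given here, so it is a description alone. One value alone reached 2-fold, that of HSP30 at 90 min. The median change of the 36 genes was highest at 10 min, with 0.11, and ran over the 7 later times as 0.08, 0.11, 0.10, 0.07, 0.00, 0.04 and 0.06.

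A class of 9 stress-inducible isoforms and heat shock genes (SSA3, SSA4, SSE2, HSP104, HSP82, HSP42, HSP26, HSP30 and HSP78) made up 9 of the 14 genes that rose at 10 min. The class is not complete, since SSA1, SIS1 and STI1 among the other genes are also known to respond to heat. HSP60 and HSP10, heat shock genes by name, were also counted among the other genes and passed upward at no time. Which of the other genes respond to heat was not assessed further. The class does not stand for all heat-responsive genes, and it was chosen with earlier results of these data known. How far that choice shaped its counts was not tested, and the counts are a description. The median change of the 9 genes at 10 min was 0.44. Of the 9, 7 rose at both 5 and 15 min, where 10.1% and 9.01% of all genes did. At 20, 30 and 45 min 8, 5 and 3 rose, against 7.96%, 5.52% and 8.78% of all genes. At 90 min 3 of the 9 rose and 2 fell (33.3% and 22.2%), against 20.7% and 20.0% of all genes. The median of the 9 was then 0.17. Of the 4 genes classed as basal (SSA2, SSB1, SSB2 and HSC82) 0 rose and 1, SSB1, fell at 10 min by limma. At an unadjusted p under 0.05 these counts were 0 and 2, and the median change was -0.07. SSB1 and SSB2 have no inducible partner in the group, while SSE1, the partner of the inducible SSE2, was counted among the other genes. Of all genes tested 11.6% rose and 12.9% fell at 10 min. Of the other 23 genes 5 rose and 0 fell at 10 min by limma (7 and 2 at an unadjusted p under 0.05), with a median of 0.05.

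**Figure D1:**
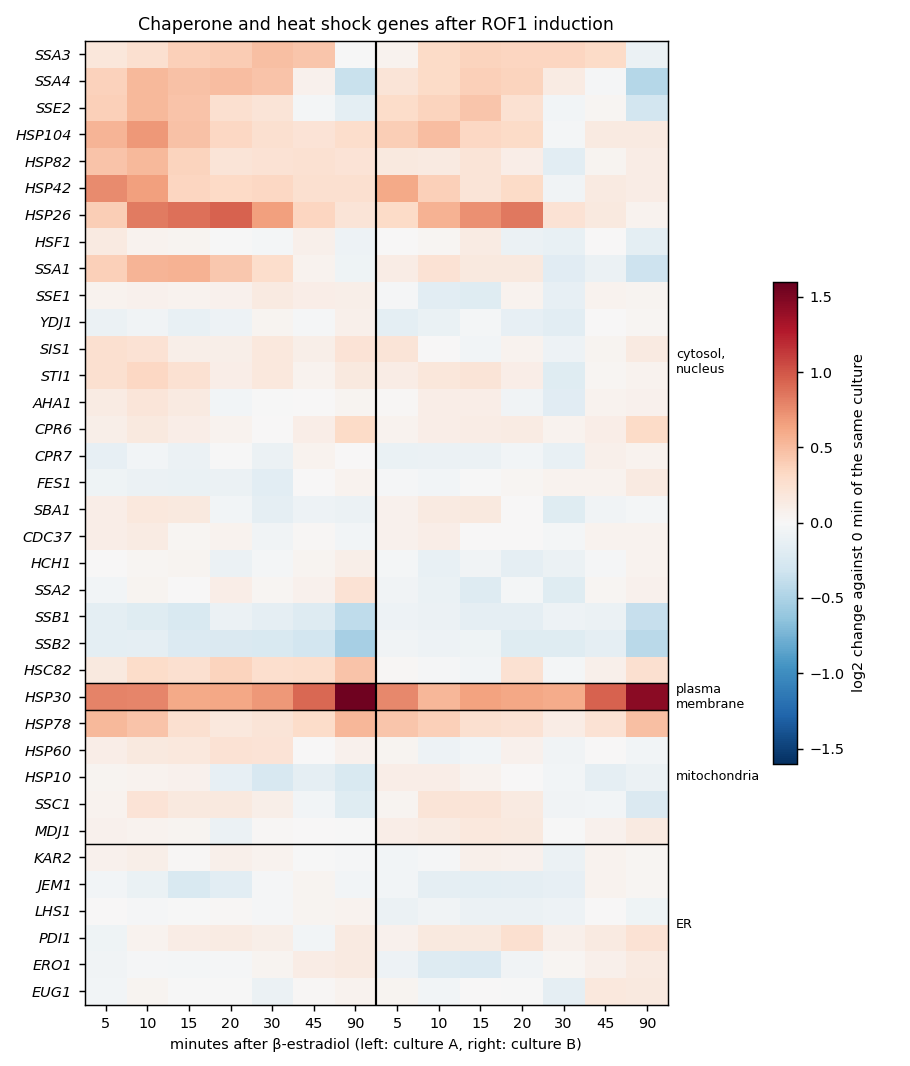
Log2 change of each of the 36 genes (rows, grouped by compartment) against 0 min of the same culture, at 7 later times, in culture A (left columns) and culture B (right columns). Red is higher and blue lower than at 0 min; the values run between -0.53 and 1.56, HSP30 stays red at every time, and the ER rows stay pale.

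The small heat shock proteins, which hold unfolded proteins until other chaperones refold them, rose early and came back. The red intensity of HSP26 lay between 44790 and 87670 over the 16 arrays. In culture A its change was 0.39, 0.83, 0.88, 0.94, 0.66, 0.34 and 0.20 at 5, 10, 15, 20, 30, 45 and 90 min. In culture B it was 0.30, 0.56, 0.73, 0.84, 0.23, 0.16 and 0.05 at the same times. By ratio both cultures peaked at 20 min, and every later array lay above its own 0 min array. The mean change at 20 min was 0.89 ± 0.09 (SE, n = 2 cultures), 1.85-fold, with a limma adjusted p of 0.000688. At 20 min the green reference was 0.44 in A and 0.20 in B below 0 min, and the red signal alone had changed by 0.49 and 0.64. In red, culture A was highest at 15 min (0.63), and culture B was at -0.02 at 90 min. The mean ratio change at 90 min was 0.12 ± 0.09 (adjusted p = 0.306).

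HSP42, the small heat shock protein that is active at normal temperature too, was 0.75 and 0.60 above 0 min at 5 min in cultures A and B, and 0.66 and 0.38 above at 10 min. Its peak was the first sample in both cultures. The mean at 5 min was 0.68 ± 0.09 (limma adjusted p = 0.00114), and at 90 min 0.19 ± 0.09 (adjusted p = 0.127).

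HSP104, the disaggregase that pulls single proteins out of aggregates, peaked at 10 min in both cultures, with a change of 0.69 in A and 0.49 in B. It passed the test at 5, 10, 15 and 20 min, missed it at 30 and 45 min, and was 0.21 ± 0.06 above 0 min at 90 min (limma adjusted p = 0.0295), a call whose direction turned with the red signal alone (-0.06). Its mean at 10 min was 0.59 ± 0.06, or 1.50-fold (adjusted p = 0.000381), and 0.37 with the red signal alone. The ratio of HSP104 to the reference strain at 10 min was 0.52 in both cultures.

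HSP30, a plasma membrane protein known to restrain the proton pump Pma1 under stress, rose at every time and was highest at 90 min. Its red intensity was 4627 and 5463 at 90 min in cultures A and B, against 1543 and 1913 at 0 min, while the green reference read 1225 and 1289 at 90 min against 1211 and 1226. In culture A the change was 0.79, 0.78, 0.60, 0.62, 0.69, 0.92 and 1.56 from 5 to 90 min. In culture B it was 0.77, 0.53, 0.64, 0.62, 0.59, 0.94 and 1.44. The course thus had a first rise within 5 min, a plateau to 30 min and a further rise at 45 and 90 min, alike in both cultures. The mean was 0.78 ± 0.07 at 5 min (limma adjusted p = 0.000142) and 1.50 ± 0.07 at 90 min, 2.83-fold (adjusted p = 1.25e-06). The change at 90 min exceeded that at 10 min by 0.85 ± 0.07 (adjusted p = 2.27e-05).

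**Figure D2:**
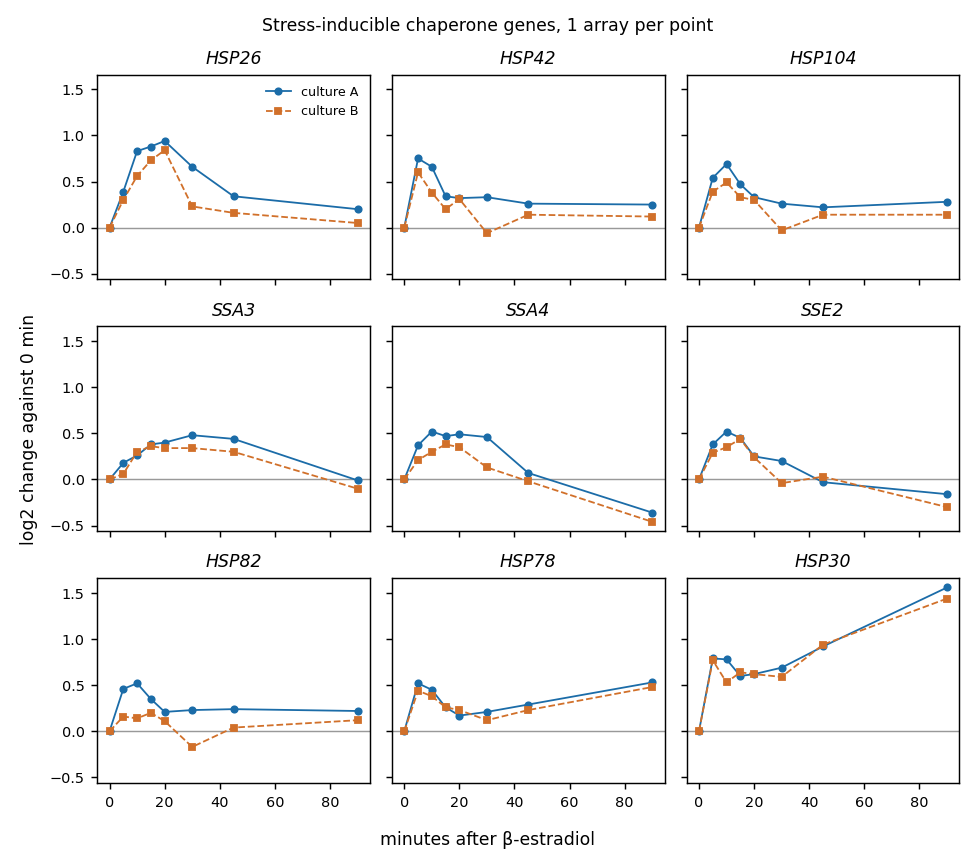
Log2 change against 0 min (y axis) over minutes after β-estradiol (x axis) of the 9 stress-inducible genes, 1 panel per gene and 1 array per point, for culture A (circles) and culture B (squares). HSP26, HSP42, HSP104 and SSE2 peak by 20 min, HSP30 reaches 1.56 in A and 1.44 in B at 90 min, and SSA4 ends below its 0 min level.

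The Hsp70 genes of the Ssa family, which fold new and damaged cytosolic proteins, split by isoform. The inducible SSA4 rose by 0.52 in culture A and 0.30 in culture B at 10 min, stayed near this level to 20 min, and was 0.36 and 0.46 below 0 min at 90 min in A and B. Its mean change was 0.41 ± 0.07 at 10 min (limma adjusted p = 0.00313) and -0.41 ± 0.07 at 90 min (adjusted p = 0.00192), so that it passed the test in both directions. SSA3 passed the test from 10 to 45 min, and SSA4 upward from 5 to 30 min. The mean change of SSA3 was highest at 30 min at 0.41 ± 0.05 (0.48 in A and 0.34 in B, limma adjusted p = 0.00121). In culture B alone both genes peaked at 15 min, SSA3 at 0.36 and SSA4 at 0.38. With the red signal alone SSA3 had changed by 0.55 in A and 0.07 in B at 45 min, and by 0.06 and -0.59 at 90 min. By ratio its mean at 90 min was -0.06 ± 0.05 (limma adjusted p = 0.383).

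SSA1, which is expressed in growing cells and also heat inducible, was 0.39 ± 0.09 above 0 min at 10 min and 0.36 ± 0.09 at 15 min (limma adjusted p = 0.0198 and 0.0337). The cultures differed in size, with 0.54 in A and 0.23 in B at 10 min, and the red signal alone gave a mean of 0.17. The arrays of 0 min differed by as much. The ratio of SSA1 to the reference strain was 0.55 in A and 0.56 in B at 10 min, against 0.01 in A and 0.33 in B at 0 min. When culture A's array of 0 min was left out, neither time passed the test. The basal SSA2 passed the test at no time, and its means lay between -0.10 at 15 min and 0.15 at 90 min.

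SSE2 and SSE1 encode Hsp110 proteins that exchange nucleotide on Hsp70. The inducible SSE2 rose by 0.52 and 0.35 at 10 min in A and B, with a mean of 0.44 ± 0.07 (limma adjusted p = 0.00261), and fell by 0.16 and 0.30 at 90 min, with a mean of -0.23 ± 0.07 (adjusted p = 0.0267) and -0.05 with the red signal alone. SSE1, the major form in growing cells, passed the test at no time, and its mean stayed between -0.07 and 0.08. FES1, another exchange factor of cytosolic Hsp70, also passed it at no time.

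The ribosome-bound Hsp70 genes SSB1 and SSB2, which act on chains leaving the ribosome, went down by ratio on every later array of both cultures. With the red signal alone SSB1 was at 0.09 at 45 min and SSB2 at 0.04 at 15 min in culture B. Their other red values were below 0. SSB2 was -0.16, -0.14, -0.22, -0.23, -0.25, -0.29 and -0.53 against 0 min in culture A from 5 to 90 min. In culture B it was -0.06, -0.08, -0.07, -0.19, -0.20, -0.15 and -0.43. It fell past the test from 15 min on, and its mean at 90 min was -0.48 ± 0.03 (limma adjusted p = 2.19e-05). SSB1 fell at 10, 15, 45 and 90 min, to -0.39 ± 0.04 at 90 min (adjusted p = 0.000107). The 2 proteins are almost identical, as are those of HSP82 and HSC82 and of SSA1 and SSA2; how far the probe of one reads the other's RNA was not tested.

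Of the Hsp90 genes, which fold kinases and receptors among others, HSP82, the inducible form, rose past the test at 10 min alone, by 0.33 ± 0.10 (0.52 in A and 0.14 in B, limma adjusted p = 0.0395). Leaving out a single array ended that call in 12 of 16 cases. HSC82, the basal form, rose at 20 min (0.30 ± 0.07, adjusted p = 0.0298) and at 90 min, by 0.46 in A and 0.25 in B (0.35 ± 0.07, adjusted p = 0.00555). Its green reference signal at 90 min was also 0.16 in A and 0.45 in B below that at 0 min, relative to each array's median, and the red signal alone changed by 0.29 in A and -0.21 in B.

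**Figure D3:**
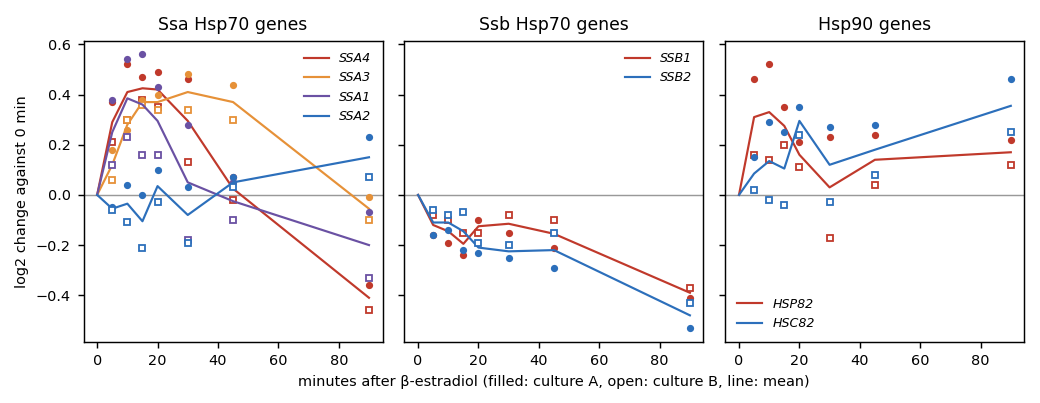
Log2 change against 0 min (y axis) over minutes after β-estradiol (x axis) of Ssa, Ssb and Hsp90 genes. Filled circles are culture A, open squares culture B and lines the mean of both. SSA4, SSA3 and SSA1 rise and return while SSA2 stays near 0, SSB1 and SSB2 fall together to -0.39 and -0.48 at 90 min, and HSC82 ends at 0.35.

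Of the 7 Hsp90 cochaperones, 3 rose at 10 min, or 42.9%, against 11.6% of all genes. SBA1, the p23 homologue that steadies the closed form of Hsp90, rose by 0.15 ± 0.03 (limma adjusted p = 0.00918). CPR6, a cyclophilin, rose by 0.13 ± 0.03 (adjusted p = 0.0131). CDC37, which brings kinases to Hsp90, rose by 0.12 ± 0.03 (adjusted p = 0.0291). With the red signal alone CDC37 turned to -0.12, CPR6 was 0.08 and SBA1 0.25. CPR6 was highest at 90 min, at 0.31 in each culture (0.31 ± 0.03, adjusted p = 8.31e-05). Its sister cyclophilin CPR7 was slightly lower, by 0.12 at 5 min and by 0.10 at 15 and 30 min, and the red signal alone turned the 15 min value to 0.13. SBA1 turned to -0.17 ± 0.03 at 30 min (adjusted p = 0.0142). HCH1, an Aha1-related activator, fell by 0.12 at 20 min. STI1, which joins Hsp70 to Hsp90, was 0.25 ± 0.08 at 10 min and missed the test (adjusted p = 0.0554), and AHA1, the ATPase activator, was 0.15 ± 0.05 (adjusted p = 0.068).

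The cytosolic J-proteins, which stimulate the ATPase of Hsp70, moved little. SIS1 rose at 5 min, by 0.25 in A and 0.21 in B (0.23 ± 0.06, limma adjusted p = 0.0356), a call lost in 9 of 16 omissions of a single array. YDJ1, the most general one, passed the test at no time. HSF1, the regulator of the heat shock genes, also passed at no time, with means between -0.12 at 90 min and 0.08 at 5 and 15 min. Hsf1 and Msn2/4 act largely through their protein state, which arrays of RNA do not measure.

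In mitochondria the disaggregase gene HSP78 was higher throughout by ratio. It rose at all 7 later times and in both cultures, with a trough between 2 high points: 0.48 ± 0.04 at 5 min (0.52 in A and 0.44 in B), 0.17 ± 0.04 at 30 min (0.21 and 0.12) and 0.50 ± 0.04 at 90 min (0.53 and 0.48). The limma adjusted p was 8.39e-05 at 5 min and 2.44e-05 at 90 min. In culture B at 10 and 15 min the green reference was 0.50 and 0.37 below 0 min, and the red signal alone had changed by -0.11 and -0.12. The red mean at 10 min was 0.17, against 0.42 by ratio. SSC1, the matrix Hsp70 that pulls in imported proteins, rose by 0.21 ± 0.04 at 10 min and fell by 0.21 at 90 min (adjusted p = 0.00425 and 0.00236), but its 15 min value of 0.18 turned to -0.08 with the red signal alone. The chaperonin HSP60 and the J-protein MDJ1 passed the test at no time, and the cochaperonin HSP10 fell by 0.17 ± 0.06 at 90 min (adjusted p = 0.047, and -0.08 with the red signal alone).

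The ER chaperones changed by at most 0.20 against 0 min. Of 42 values (6 genes at 7 times) 2 rose and 2 fell past the test; at no single time did more than 1 gene, 16.7% of the 6, pass in one direction. By the F test 3 of the 6 passed (JEM1, PDI1 and ERO1), 50.0% against 50.6% of all genes. Of the 6, 2 (JEM1 and ERO1) were higher at 90 min than at 10 min, 33.3% against 26.3% of all genes. PDI1, the disulfide isomerase, was 0.19 ± 0.05 at 20 min and 0.18 ± 0.05 at 90 min (limma adjusted p = 0.0315 and 0.0161), with 0.06 and 0.07 by the red signal alone. JEM1, a J-protein that works with KAR2, with a red intensity between 270 and 511.4, was -0.20 ± 0.04 at 15 min and -0.16 ± 0.04 at 20 min (adjusted p = 0.013 and 0.0375), and -0.02 and -0.10 by the red signal alone. KAR2, the ER Hsp70 and a standard readout of the unfolded protein response, lay between -0.02 and 0.08, with adjusted p of 0.445 or more. The exchange factor LHS1, the oxidase ERO1 and the isomerase EUG1 also passed the test at no time.

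Early and late changes were compared directly as 90 min against 10 min. Here 9 of the 36 genes were higher and 14 lower, the lower ones 38.9% of the group, while 26.3% of all genes tested were higher and 22.3% lower. Among the 9 inducible genes 6 were lower at 90 min than at 10 min and 1, HSP30, was higher. SSA4 (-0.82 ± 0.07), SSE2 (-0.67 ± 0.07), SSA1 (-0.59 ± 0.09) and HSP26 (-0.57 ± 0.09) came down most, with limma adjusted p of 0.0013 or less. SSA4, SSE2 and SSC1 passed the test upward at 10 min and downward at 90 min. HSP78 differed by 0.08 ± 0.04 between these times (adjusted p = 0.0884).

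**Figure D4:**
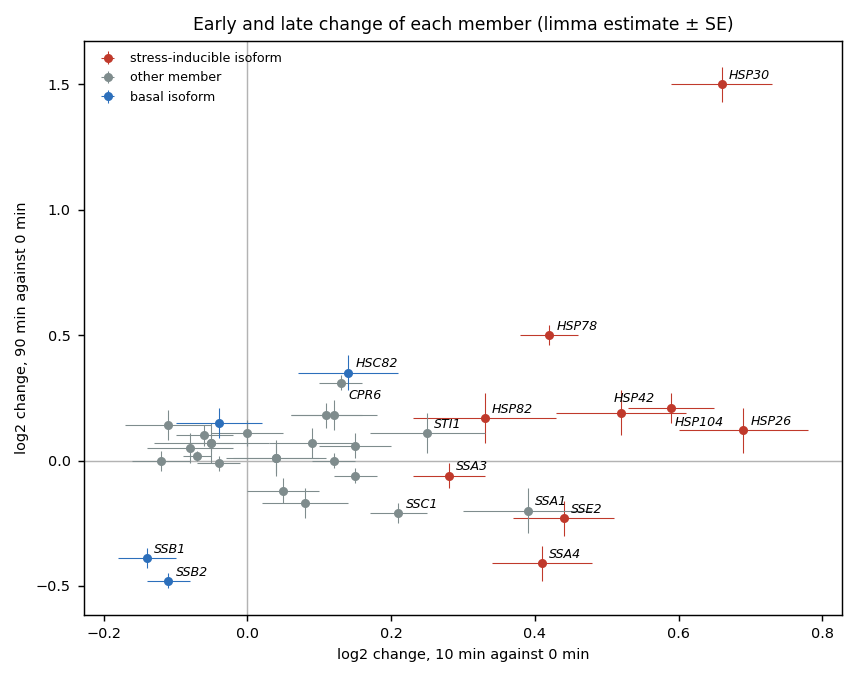
Change of each of the 36 genes at 90 min (y axis) against its change at 10 min (x axis), both log2 against 0 min, with limma SE bars. Red points are inducible, blue basal and grey other genes. All 9 inducible genes lie right of 0, HSP30 stands alone at 0.66 and 1.50, and SSB1 and SSB2 lie at the lower left. Both changes share the 0 min arrays.

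The cultures differed in the 0 min sample. At that time all 9 inducible genes, and 27 of all 36, had a lower ratio to the reference strain in culture A than in culture B, while 47.5% of all genes tested did. The changes were larger in A than in B for 27, 29, 20, 24, 30, 19 and 21 of the 36 genes at the 7 later times. Of all genes between 47% (at 45 min) and 49.2% (at 10 min) had a larger change in A. The median gap of the 36 genes, A minus B, was 0.12 at 30 min and 0.08 at 10 min. All 15 genes past the test at 10 min changed in the same direction in both cultures, which a call on their mean nearly requires. Leaving out culture A's array of 0 min, 10 genes in place of 14 rose at 10 min and 4 in place of 8 at 5 min. Leaving out its 10 min array, 9 rose at 10 min. Culture B's 10 min array was the dimmest of the 16 in red, with a median of 930.5. The 9 that rose at 10 min whichever single array was left out were SSA3, SSA4, SSE2, HSP104, HSP42, HSP26, HSP30, HSP78 and SSC1.

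Before induction the ROF1 strain was compared with the reference strain. At 0 min 16 of the 36 genes were higher in the ROF1 strain and 7 lower (44.4% and 19.4%), against 25.9% and 23.8% of all genes tested. SSA3 had the highest ratio, 0.69 in culture A and 0.91 in B (0.80 ± 0.08, limma adjusted p = 5.3e-05), followed by SSA4 with 0.45 and 0.76 (0.61 ± 0.09, adjusted p = 0.000757) and HSP30 with 0.35 and 0.64 (0.50 ± 0.12, adjusted p = 0.00843). HSP78 was lowest, at -0.54 and -0.40 (-0.47 ± 0.06, adjusted p = 0.000184). In the ER, KAR2 (-0.19 ± 0.04), ERO1 (-0.21 ± 0.04) and LHS1 (-0.11 ± 0.02) were lower and JEM1 (0.24 ± 0.03) higher. Strain, dye and culture conditions cannot be told apart here, because the ROF1 strain was red on all arrays and how the reference strain was grown is not given in the sources used here.

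**Figure D5:**
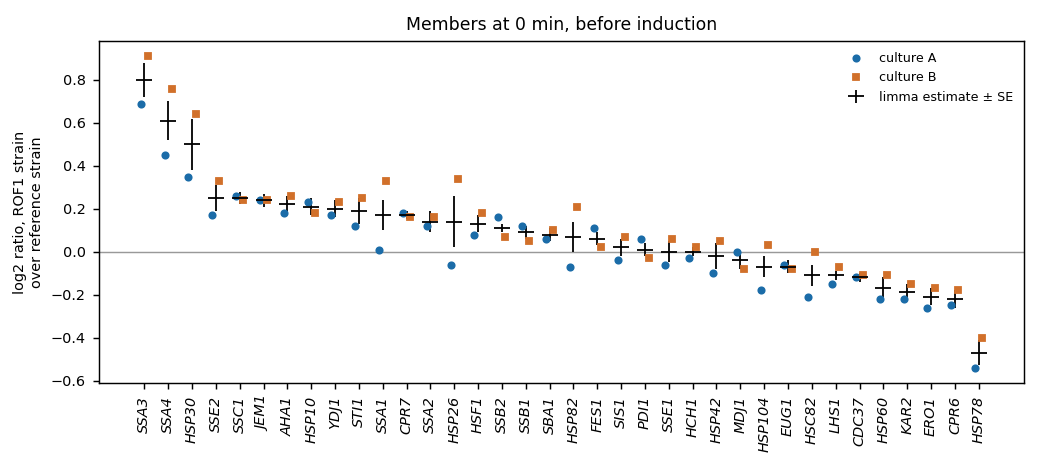
Log2 ratio of the ROF1 strain to the reference strain at 0 min (y axis) for each of the 36 genes (x axis, sorted by the mean), with culture A as circles, culture B as squares and the limma estimate ± SE as crosses. SSA3, SSA4 and HSP30 are at the upper end and HSP78 at the lower, and the B value exceeds the A value for 27 genes.

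Other folding and stress genes were read beside the group, 62 in 6 lists. Their values are given by ratio, with no results for the red signal alone or with arrays left out. At 10 min 4 of the 62 rose and 6 fell (6.45% and 9.68%, against 11.6% and 12.9% of all genes). At 90 min 13 rose and 11 fell (21.0% and 17.7%, close to the 20.7% and 20.0% of all genes). HSP12, a membrane-protecting stress protein and a textbook target of Msn2/4, passed the test upward at all 7 later times. It changed by 0.51 ± 0.04 at 10 min, 0.73 ± 0.04 at 20 min and 0.57 ± 0.04 at 90 min (limma adjusted p = 6.01e-05, 2.82e-05 and 1.19e-05). HSP31, a stress-induced chaperone, rose from 5 to 45 min, with 0.39 ± 0.02 at 10 min (adjusted p = 2.84e-05). MSN4 rose at 45 min (0.28 ± 0.06) and 90 min (0.31 ± 0.06, adjusted p = 0.00502), and MSN2 at 90 min (0.25 ± 0.08, adjusted p = 0.0325).

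The lists that follow are small, and the shares of all genes stand beside them. These were 11.6% higher and 12.9% lower at 10 min, and 20.7% and 20.0% at 90 min. Of 21 other cytosolic chaperones and cochaperones, HSP12 and HSP31 among them, 4 rose and 3 fell at 10 min (19.0% and 14.3%). The other risers were BTN2, which sorts misfolded proteins (0.24 ± 0.05, limma adjusted p = 0.00728), and MBF1, a transcriptional coactivator (0.16 ± 0.03, adjusted p = 0.0109). CNS1, an essential Hsp90 cochaperone, was -0.40 ± 0.04 at 10 min (limma adjusted p = 0.000201). PPT1, the phosphatase that acts on Hsp90, was -0.45 ± 0.06 (adjusted p = 0.00104), and JJJ1, a J-protein of ribosome maturation, was -0.29 ± 0.04 (adjusted p = 0.000766). Of the 8 subunits of the cytosolic chaperonin CCT, which folds actin and tubulin, 0 rose and 1 fell at 10 min by limma (0 and 2 at an unadjusted p under 0.05), and 2 rose and 0 fell at 90 min (2 and 1 unadjusted). Of 6 prefoldin subunits, which hand actin and tubulin to CCT, 1 fell and 0 rose at each of these times (2 and 0 unadjusted). Among 12 further ER genes 0 changed past the test at 10 min (0 unadjusted too), and at 90 min 2 rose and 4 fell, MPD1, a disulfide isomerase relative, by most (-0.64 ± 0.06, adjusted p = 6e-05). HAC1 was -0.27 ± 0.05 at 90 min (adjusted p = 0.00446). Of 11 further mitochondrial chaperone genes 0 rose and 1 fell at 10 min (1 and 1 unadjusted), and 2 rose and 2 fell at 90 min.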

How the data were processed

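The authors scanned two-colour Agilent arrays and made the intensity values with Feature Extraction 12.0.1.1. Per the file headers, background was subtracted from both intensities, which were then spatially detrended and dye normalized. The authors floored them at 50 and deposited the log2 ratio, red divided by green. That table equalled the ratios recomputed here (0 spots differed on any array). Files held 12512 spots for 6256 probes and 6225 genes. The array design was annotated on an older build than the R64 gene table used for names, so no coordinates are given, and no sequences were read.

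Outlier spots were left out (3 to 183 per array), and the log2 ratio was averaged over a probe's spots. For the 29 genes with several probes the brightest in red was taken. The 6046 genes well above background in red on at least 2 arrays were tested. All 16 arrays entered a single limma fit (version 3.58.1, R 4.3.3) with a term for each time and a block for culture, leaving 7 residual degrees of freedom (prior 0.89). Contrasts were each later time against 0 min, 90 min against 10 min, and a moderated F test. The ratio at 0 min was tested against 0 without the block. P-values were adjusted by Benjamini-Hochberg over all genes of a contrast. The labels name the cultures A and B at every time, so samples are paired by culture; each culture was also hybridised on a slide of its own, and culture and slide cannot be told apart. Deviations of 28 pairs of arrays of a culture correlated at a median of 0.148 (-0.047 to 0.402).

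The number of arrays limits precision, with 2 cultures per time. Median red intensity ran from 930.5 to 1417 per array, and between 90.5 and 97.4% of an array's spots exceeded background well in red. Both low ends were those of culture B's 10 min array, and the next lowest were 1203.4 and 93.7%, of culture A at 45 min. That 10 min array of B enters every change at 10 min and every difference between 90 and 10 min. The steps were tested on simulated data.

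The members, the stress classes and the 6 further lists (cytosolic chaperonin, prefoldin, other cytosolic, other mitochondrial, other ER, stress regulators) were chosen with earlier results of these data known. All members are described; of the further genes those past the test with large changes are named. Each result was recomputed from raw medians (normexp, then loess), from the authors' own ratios, with the floor removed or set to 200, with a looser and a stricter filter, after median centring, from red signal only, without the culture term, with a minimum change of 1, and without each array or culture. A fit without the 264 genes that had no residual spread was added after seeing the data. Motif searches in promoters were not run. Figures were drawn with matplotlib 3.10.9.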

Additional observations from a re-analysis of the deposited data

Results flagged for a closer look

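For 23 of the 36 genes the change at 90 min differed from that at 10 min by limma's test of the difference itself (adjusted p under 0.05). Both changes are measured in the same cultures. Of all genes tested 26.3% were higher and 22.3% lower in this comparison. In 14 of the 36 genes the later change was the lower one. Among cytosolic chaperones the difference was -0.82 for SSA4, -0.67 for SSE2, -0.59 for SSA1, -0.57 for HSP26, -0.38 for HSP104, -0.34 for HSP42 and -0.34 for SSA3. For the ribosome-bound SSB2 and SSB1 it was -0.38 and -0.24, for the mitochondrial SSC1 and HSP10 -0.42 and -0.25, and for SBA1, HSF1 and CDC37 -0.22, -0.17 and -0.12.

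In 9 genes the later change was the higher one: by 0.85 for HSP30, 0.25 for ERO1, 0.22 for HSC82, 0.19 for SSA2, 0.18 for CPR6, 0.16 for FES1, 0.12 for JEM1, 0.11 for HCH1 and 0.09 for CPR7. With the red signal alone 4 of them turned direction, ERO1 to -0.06, HSC82 to -0.15, SSA2 to -0.12 and HCH1 to -0.22, as did CDC37 among the lower ones (0.05). Of these 9, HSP30 and CPR6 passed the test whichever single array was left out, as did 10 of the 14 lower ones. ERO1, FES1, SSA2 and HSF1 passed it here although none of their single times against 0 min did.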

How the results depend on the processing

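The counts of genes that rose or fell kept within 1.5 times of those reported with the deposited table, no floor, a floor of 200, no or a strict filter, median centring, and without the genes that had no residual spread (14 rose at 10 min there too). With normexp and loess 0 fell at 5 min, 1 at 20 min and 1 at 30 min, and 7 rose at 45 min. Without the replicate block, which drops the pairing by culture, 6 rose at 20 min, 2 at 30 min and 1 at 45 min; the other counts stayed within 1.5 times.

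With the red channel alone the counts that rose were 1, 1, 0, 0, 0, 1 and 1 from 5 to 90 min, and 0, 0, 0, 0, 0, 0 and 2 fell, by limma, with no share of all genes beside them. At an unadjusted p under 0.05 these were 7, 8, 7, 4, 4, 1 and 4, and 0, 0, 1, 0, 2, 2 and 3. From 10 to 90 min 1 was higher and 5 lower, and 5 passed the F test. Red alone turned the direction of CDC37 (-0.123 at 10 min), CPR7 (0.126 at 15 min), SSC1 (-0.077 at 15 min) and HSP104 (-0.057 at 90 min), and, for 90 min against 10 min, of CDC37 (0.052), SSA2 (-0.124), ERO1 (-0.057), HSC82 (-0.154) and HCH1 (-0.223). The cause was not tested. The green signal of the 36 genes, relative to the array median, ranged by 0.32 (median) and up to 0.92 over the 8 arrays of a culture.

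A minimum change of 1 left 1 gene that rose at 90 min and 0 in every other count, also for 90 min against 10 min and against the reference strain.

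Leaving out 1 array gave 4 to 10 that rose and 0 to 2 that fell at 5 min, 9 to 16 and 0 to 2 at 10 min, 7 to 13 and 0 to 4 at 15 min, 4 to 11 and 1 to 3 at 20 min, 2 to 6 and 1 to 4 at 30 min, 3 to 6 and 1 to 2 at 45 min, and 4 to 9 and 4 to 7 at 90 min. It gave 2 to 10 higher and 10 to 15 lower at 90 min against 10 min, 10 to 16 and 3 to 8 against the reference strain, and 18 to 26 by the F test. Without the 0 min array of culture A 7 rose at 15 min, 4 at 20 min and 2 at 30 min. With 1 culture left out a change has no test, and 0 of the calls changed sign. The calls were made on the mean of the same cultures, which nearly requires this, so it adds no support.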
